A study of Mus musculus with 8 samples.

Results

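The Socs3 locus was followed through 16 ATAC-seq peaks on mouse chromosome 11 (build mm9), out of 74207 peaks in the whole table. The members were chosen by position alone: all peaks that end at or after 117780000 and start at or before 117860000, around Socs3 at about 117827000 to 117831000. No measured value enters that rule, but the locus was proposed with earlier results of these data known, and which values led to it is not recorded. The calls below therefore describe single peaks and are no independent evidence about the locus. The nearest peak outside the window lay 5.59 kb below it, with 10.01 to 21.3 RPKM over the 8 libraries, and the next one above lay 16.8 kb beyond it, with 10.01 to 17.4 RPKM as deposited.

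ATAC-seq measures open chromatin by letting the Tn5 transposase cut and tag accessible DNA. Macrophages were grown from the bone marrow of 2 wild-type C57Bl/6 mice, and each mouse gave 1 library in each of 4 groups. Cells were left unstimulated, or received the β2 adrenergic receptor agonist fenoterol at 1 µM for 15 min, or LPS at 100 ng/mL for 1 h, or fenoterol for 15 min followed by LPS for 1 h. Time since the agonist thus differed between the groups with fenoterol. The comparison of fenoterol + LPS with fenoterol, and the interaction, therefore include that difference in time as well as LPS. LPS is a bacterial lipopolysaccharide sensed by Toll-like receptor 4. The labels give neither sex nor age of the mice.

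Socs3 encodes suppressor of cytokine signalling 3, an SH2-domain protein that binds activated cytokine receptors of the gp130 family, blocks the attached Janus kinases and recruits a ubiquitin ligase through its SOCS box. It is itself a target of STAT transcription factors, so it closes a negative feedback loop on cytokines such as IL-6. In macrophages it is known as an early gene of the response to Toll-like receptor ligands and to IL-10. Accessibility says how open a region is, and not how much Socs3 RNA was made, which was not measured in these libraries.

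Socs3 lies on the minus strand, so higher coordinates are upstream of it. The peak at 117830180 to 117830983, 804 bp wide, is the only one of the 16 that overlaps the Socs3 interval. It lies near the upper end of that approximate interval, the side on which the gene starts, and is called the promoter peak here. Whether it covers the exact start was not checked. Other peaks are named by the distance of their centre from its centre: 8 lie upstream and 7 downstream, from 22.7 kb upstream to 29.4 kb downstream. In the RefSeq gene order, Pgs1 is the next gene upstream and the lncRNA gene Gm11725 the next one downstream. No mm9 annotation was used, so peaks other than the promoter peak were not assigned to a gene, exon or intron.

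The promoter sequence is shown because the promoter peak is among those that rose with LPS. It holds the 250 bases before the RefSeq start of Socs3 (build GRCm38.p6, chr11:117969367-117969616, minus strand, a build whose coordinates differ from those of the peaks), 5′ to 3′, with motif matches in capitals:

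Socs3 promoter: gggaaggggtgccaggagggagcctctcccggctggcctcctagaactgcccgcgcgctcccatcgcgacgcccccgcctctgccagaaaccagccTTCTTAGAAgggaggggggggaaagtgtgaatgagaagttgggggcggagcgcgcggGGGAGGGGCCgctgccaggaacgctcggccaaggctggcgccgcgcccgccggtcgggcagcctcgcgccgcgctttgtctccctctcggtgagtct

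The first capitals match the STAT motif TTCNNNGAA, from 154 bases before the start. Of the 32851 RefSeq promoters of this length, 7.02% hold that motif. The second match, from 97 bases before the start, is to a loose NF-κB motif, which 17.6% of promoters hold. On both strands, these 250 bases held no match to TTCCNGGAA (0.913% of promoters), to a stricter NF-κB motif (1.41%), to the AP-1 motif TGANTCA (6.75%), to the cyclic AMP response element TGACGTCA (1.55%) or to its shorter form TGACG (17.8%). Every match to TTCCNGGAA is also one to TTCNNNGAA, and every TGACGTCA holds TGACG. G and C made up 71.6% of the Socs3 bases against a median of 52.4% over the promoters. These matches describe letters only.

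LPS opened the promoter peak. Values are scaled RPKM, that is, reads in a peak relative to its length and to the library's reads in peaks, after scaling between libraries. In mouse 1 and mouse 2 the promoter peak stood at 43.7 and 38.3 RPKM in unstimulated cells, 36.3 and 41.3 with fenoterol, 70.8 and 73.5 with LPS, and 76.5 and 79.5 with fenoterol + LPS. All 4 libraries with LPS lay above all 4 without it, while the unstimulated and fenoterol libraries overlapped. Against unstimulated cells it rose with LPS by a log2 of 0.76 (SE 0.13, adjusted p = 0.000946 by limma-trend), with group means of 41.0 ± 3.805 and 72.2 ± 1.93 RPKM (SD, n = 2 mice). Log2 changes are of the scaled value + 4 RPKM and understate the ratio of the levels, which here was 1.76. Between fenoterol and fenoterol + LPS the promoter peak rose from 38.8 ± 3.48 to 78.0 ± 2.15 RPKM. That was a log2 change of 0.94 (SE 0.13, adjusted p = 8.78e-05 by limma-trend), between groups that also differ in time since the agonist. In order of mean level the groups ran fenoterol, unstimulated, LPS, fenoterol + LPS. The first neighbours in that order overlapped, and the last neighbours did not overlap but did not pass the test (log2 difference 0.11, 95% interval -0.17 to 0.39). Of all tested peaks, 20.7% had both fenoterol + LPS libraries above both LPS ones. The promoter peak held 47 reads in the shallowest library (exact 95% Poisson interval 34.5 to 62.5, counting error only) and 93 to 243 in the others.

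**Figure D1:**
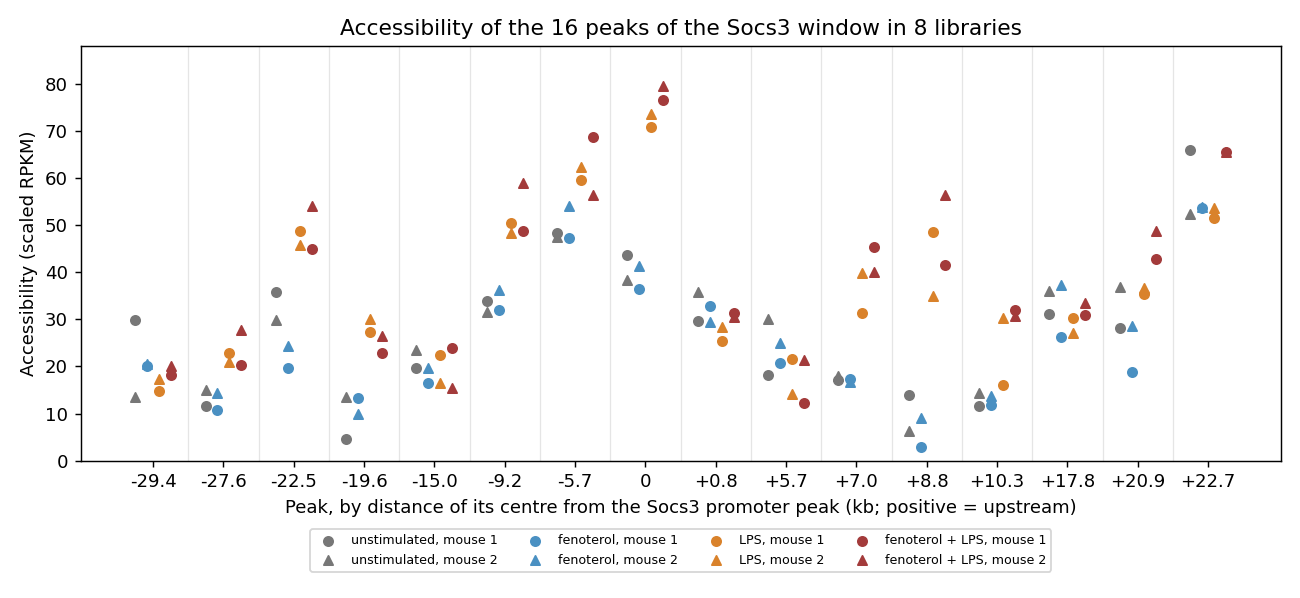
Scaled RPKM (y axis) of each of the 16 peaks, placed by the distance of its centre from the Socs3 promoter peak in kb (x axis, equally spaced, positive upstream); colours are the 4 groups, circles mouse 1 and triangles mouse 2. At the promoter peak the libraries without LPS lie at 36.3 to 43.7 RPKM and those with LPS at 70.8 to 79.5 RPKM.

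The change was not uniform along the window. With LPS, 6 of the 16 peaks rose and 0 fell against unstimulated cells, beside 6.53% and 3.54% of the 66786 peaks tested over the genome. All 16 window peaks passed the filter on low values. Between fenoterol and fenoterol + LPS, 9 of 16 rose and 0 fell, beside 9.43% and 4.32% of all tested peaks. The 6 peaks called without fenoterol were all among these 9. No library is shared between these comparisons, but both use cells of the same 2 mice, and 1 estimate of spread per peak serves both. The median log2 change of the 16 was 0.40 without fenoterol and 0.68 with it, beside -0.03 and -0.03 over all tested peaks. The 4 libraries with LPS lay above the 4 without at 9 of the 16 peaks, which held for 12.3% of all tested peaks, and below at 0, against 11.3% of all. The 6 calls became 2 without the LPS library of mouse 2, and the 9 became 4 without the fenoterol library of mouse 1. A larger share of cells with an open region and a more open region in each cell cannot be told apart in these bulk libraries.

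**Figure D2:**
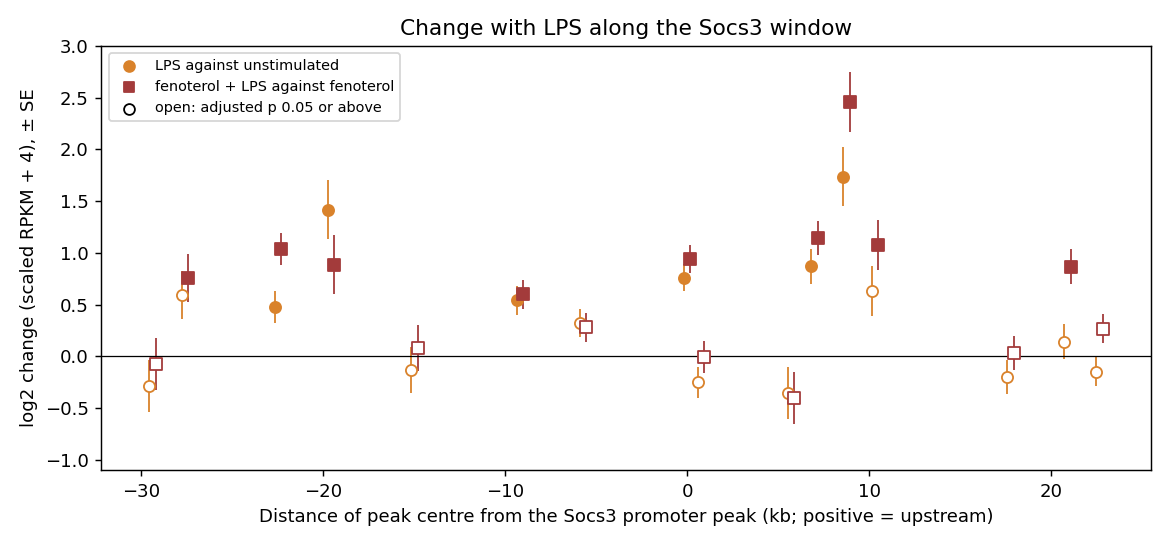
Log2 change with LPS (y axis, scaled RPKM + 4, bars are ± SE) against distance from the Socs3 promoter peak (x axis, kb, positive upstream); circles compare LPS with unstimulated cells, squares fenoterol + LPS with fenoterol, and open symbols have an adjusted p of 0.05 or above. The changes at the peak 8.77 kb upstream, 1.74 and 2.46, are the highest of the window.

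The highest rise was upstream of the gene, at the peak 8.77 kb from the promoter peak (117839136 to 117839562, 427 bp). In mouse 1 and mouse 2 it measured 14.0 and 6.20 RPKM unstimulated, 2.95 and 9.04 with fenoterol, 48.5 and 35.0 with LPS, and 41.5 and 56.3 with both. It was thus among the least open peaks of the window before LPS and came close to the unstimulated level of the promoter peak, or passed it, after 1 h. LPS raised it from 10.1 ± 5.52 to 41.7 ± 9.55 RPKM (SD, n = 2), a ratio of 4.13 (log2 change 1.74, SE 0.29, adjusted p = 0.000533), above the log2 change of 99.6% of all tested peaks. Between fenoterol and fenoterol + LPS it went from 5.99 ± 4.31 to 48.9 ± 10.4 RPKM, a ratio of 8.16 (log2 change 2.46, SE 0.29, adjusted p = 1.07e-05). The size of these ratios rests on single libraries: LPS to unstimulated was 3.46 in mouse 1 and 5.64 in mouse 2, and fenoterol + LPS to fenoterol was 14.1 and 6.22. Without the fenoterol library of mouse 1 the latter log2 change was 2.00, and without that of mouse 2 it was 2.91. Reads were few without LPS, at 8 and 11 unstimulated and 4 and 15 with fenoterol, against 55 to 86 in the LPS libraries. The larger change with fenoterol did not pass the test of the difference (interaction log2 0.72, 95% interval -0.13 to 1.57, adjusted p = 0.846).

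The nearest peaks on either side of it rose in at least 1 of the LPS comparisons. The peak 6.99 kb upstream (117837415 to 117837721) measured 17.1 and 18.1 RPKM unstimulated, 17.4 and 16.8 with fenoterol, 31.4 and 39.8 with LPS, and 45.4 and 40.1 with both. The 4 libraries without LPS lay close together, and each LPS library was far above them. It rose with LPS (log2 change 0.87, SE 0.17, adjusted p = 0.0019) and with LPS after fenoterol (1.14, SE 0.17, adjusted p = 0.000103), the first of these calls being lost without the LPS library of mouse 2 (adjusted p = 0.074). The peak 10.3 kb upstream (117840613 to 117841196) measured 11.5 and 14.4 RPKM unstimulated, 11.8 and 13.7 with fenoterol, 16.01 and 30.2 with LPS, and 32.1 and 30.6 with both. Here the LPS library of mouse 1 stood far below the other 3 with LPS. The peak rose from fenoterol to fenoterol + LPS (log2 change 1.08, SE 0.24, adjusted p = 0.00421) and was not called without fenoterol (0.63, SE 0.24, adjusted p = 0.103), except under 2 of 19 alternatives: without that library (1.02, adjusted p = 0.0327), and by voom on reads with the mouse as a block (0.79, adjusted p = 0.0234). The rise after fenoterol narrowly missed the threshold without the fenoterol or the fenoterol + LPS library of mouse 1 (adjusted p = 0.0516 and 0.0582). By contrast, the peak 5.70 kb upstream (117836138 to 117836426), nearer to the gene, had 12.3 to 30.0 RPKM over the 8 libraries, with adjusted p = 0.432 and 0.345 for LPS without and with fenoterol.

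Downstream of Socs3, 3 peaks rose with LPS in both comparisons. The peak 9.19 kb downstream (117821076 to 117821715) measured 33.9 and 31.6 RPKM unstimulated, 31.9 and 36.2 with fenoterol, 50.5 and 48.3 with LPS, and 48.6 and 58.9 with both. Libraries with and without LPS did not overlap, and the changes were 0.54 (SE 0.14, adjusted p = 0.0171) without and 0.60 (adjusted p = 0.0063) with fenoterol. The former was lost without either LPS library (adjusted p = 0.138 and 0.104). The latter was lost without the fenoterol library of mouse 1 or the fenoterol + LPS library of mouse 2 (adjusted p = 0.1 and 0.137). The peak 19.6 kb downstream (117810774 to 117811270) measured 4.51 and 13.6 RPKM unstimulated, 13.3 and 9.84 with fenoterol, 27.4 and 30.0 with LPS, and 22.9 and 26.4 with both. Its low value in the unstimulated library of mouse 1 rests on 3 reads (interval 0.619 to 8.77). It rose with LPS (log2 change 1.42, SE 0.28, adjusted p = 0.00254) and by a log2 of 0.89 after fenoterol (SE 0.28, adjusted p = 0.04). The ratio of LPS to unstimulated was 6.07 in mouse 1 and 2.21 in mouse 2. The log2 change of 1.42 became 0.90 (adjusted p = 0.023) when mouse 1 was left out of the unstimulated group and 1.94 when mouse 2 was. The first of these calls was lost without the LPS library of mouse 2 (adjusted p = 0.0526); the second was lost under 9 of 19 alternatives, among them leaving out any 1 fenoterol, LPS or fenoterol + LPS library.

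The peak 22.5 kb downstream (117807707 to 117808518) is the widest of the window, at 812 bp. It measured 35.9 and 29.9 RPKM unstimulated, 19.7 and 24.4 with fenoterol, 48.8 and 45.8 with LPS, and 44.9 and 54.0 with both. Both fenoterol libraries lay below both unstimulated ones, and all LPS libraries above them. Fenoterol libraries likewise lay wholly below the unstimulated ones at 16.99% of all tested peaks, and wholly above them at 15.15%. The rise from fenoterol to fenoterol + LPS had a log2 of 1.04 (SE 0.15, adjusted p = 0.000111), more than that from unstimulated cells to LPS, 0.48 (SE 0.15, adjusted p = 0.0492). The difference between these rises was not called (interaction log2 0.56, 95% interval 0.11 to 1.00, adjusted p = 0.722). The LPS call of this peak stood close to the threshold and was lost under 10 of 19 alternatives, 6 of them the omission of 1 library, with adjusted p up to 0.258. The peak 27.6 kb downstream (117802825 to 117803147) measured 11.6 and 14.9 RPKM unstimulated, 10.7 and 14.4 with fenoterol, 22.8 and 21.0 with LPS, and 20.4 and 27.7 with both. It rose after fenoterol (log2 change 0.76, SE 0.23, adjusted p = 0.0329) and was not called without it (0.59, SE 0.23, adjusted p = 0.114). The groups did not overlap in either comparison. The group with LPS likewise lay wholly higher at 27.1% of all tested peaks with fenoterol and at 23.5% without it. The call was lost under 6 of 19 alternatives, 5 of them the omission of 1 fenoterol, LPS or fenoterol + LPS library, with adjusted p up to 0.332.

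**Figure D3:**
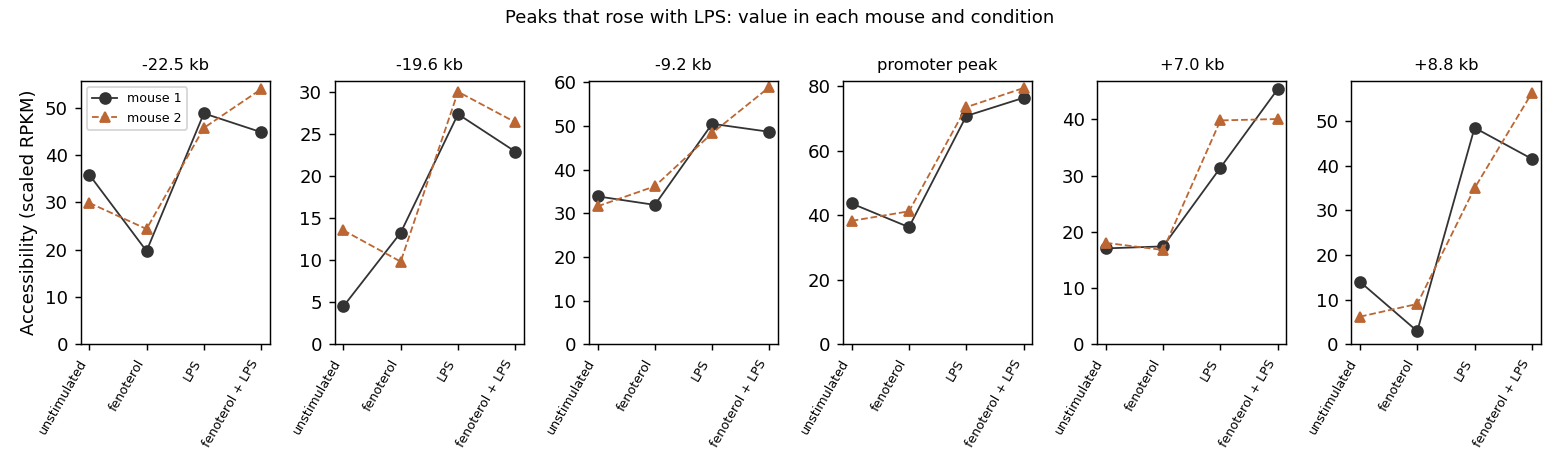
Scaled RPKM (y axis, from 0, scale set for each panel) of the 6 peaks that rose with LPS against unstimulated cells, in the 4 conditions (x axis); the solid line with circles is mouse 1 and the dashed line with triangles mouse 2. In each panel both values with LPS and both with fenoterol + LPS lie above all 4 values without LPS.

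At most of the remaining peaks neither LPS comparison gave a call. The peak 22.7 kb upstream (117852991 to 117853501) had the highest mean of the 16, 57.7 RPKM, just above the promoter peak at 57.5. It measured 65.8 and 52.3 RPKM unstimulated, 53.5 and 53.9 with fenoterol, 51.6 and 53.6 with LPS, and 65.4 and 65.6 with both. Its change from fenoterol to fenoterol + LPS was called under 1 of 19 alternatives, quantile normalization (log2 change 0.30, adjusted p = 0.0355). The peak 5.72 kb downstream (117824556 to 117825174) ranked next by mean, with 47.2 to 54.0 RPKM without LPS and 56.4 to 68.7 with it. Its LPS libraries were all higher, but neither comparison passed (log2 changes 0.32 and 0.28, adjusted p = 0.155 and 0.205). The first was called under 1 of 19 alternatives, quantile normalization (0.38, adjusted p = 0.0337). The peak 0.773 kb upstream (117831254 to 117831455), beside the promoter peak, had 29.4 to 35.9 RPKM without LPS and 25.3 to 31.4 with it. Its log2 change with LPS was -0.25 (SE 0.15, adjusted p = 0.338), against 0.76 at the promoter peak; the difference between these peaks was not tested. The peaks 17.8 kb upstream, 15.0 kb downstream and 29.4 kb downstream had adjusted p-values of 0.504 to 0.923 in both LPS comparisons.

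At the peak 20.9 kb upstream (117851233 to 117851736) the comparisons with LPS differed in outcome. It measured 28.2 and 36.8 RPKM unstimulated, 18.7 and 28.6 with fenoterol, 35.4 and 36.6 with LPS, and 42.7 and 48.8 with both. The fenoterol + LPS libraries were the highest pair and the fenoterol library of mouse 1 the lowest single value. It rose from fenoterol to fenoterol + LPS (log2 change 0.87, SE 0.17, adjusted p = 0.00176) but not from unstimulated cells to LPS (0.14, SE 0.17, adjusted p = 0.666). Its interaction of 0.72 (95% interval 0.22 to 1.23) was the highest of the window and was not called over the whole table (adjusted p = 0.677). Without the fenoterol library of mouse 1 the rise after fenoterol was no longer called (adjusted p = 0.0685).

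**Figure D4:**
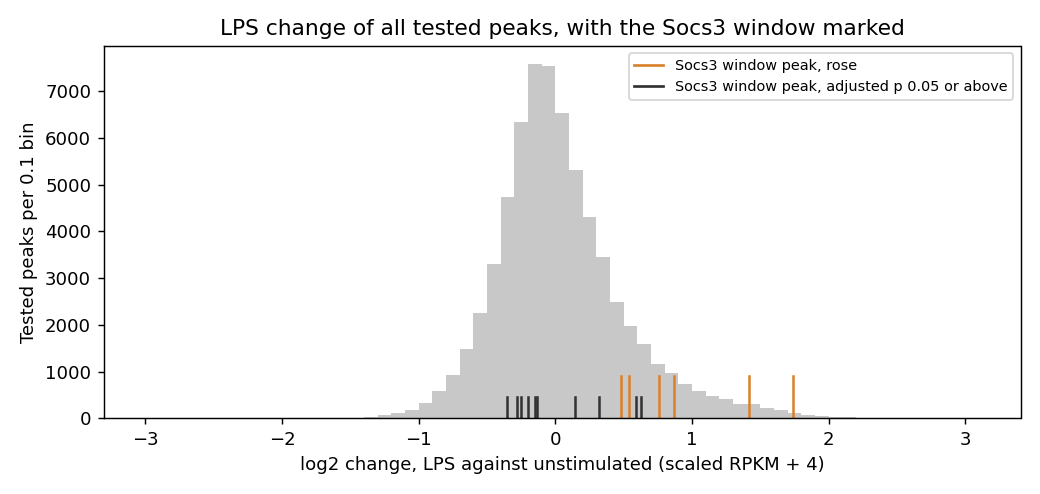
Number of tested peaks (y axis) per 0.1 bin of the log2 change between LPS and unstimulated cells (x axis, scaled RPKM + 4), with the 16 Socs3 window peaks as vertical marks, long for the 6 that rose and short for the other 10. The marks run from -0.35 to 1.74, and the heights of the marks carry no value.

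Fenoterol alone for 15 min gave no call in the window: 0 of 16 peaks rose and 0 fell, by limma-trend and by voom on reads. Of all tested peaks, 0.00599% rose and 0.0015% fell by limma-trend, and by voom 29 peaks rose and 2 fell. The median log2 change of the 16 was -0.06 beside -0.02 over all tested peaks, and 4 of 16 were above 0 beside 46.6% of all. In both mice 0 of 16 were higher with fenoterol alone, beside 23.8% of all tested peaks. At an unadjusted p under 0.05 there were 2 of the 16 peaks, those 22.5 kb downstream (log2 change -0.50, SE 0.15, adjusted p = 0.459) and 20.9 kb upstream (-0.41, SE 0.17, adjusted p = 0.629), among 4962 of all tested peaks. With mouse 2 left out of the unstimulated group, so that only the shallow library of mouse 1 remained there, the former was called lower (log2 change -0.62). Under that setting 1889 of all tested peaks were called lower and 1706 higher, against 1 and 4 with all libraries. At the promoter peak the log2 change was -0.07 (95% interval -0.35 to 0.21), and the mice differed in sign, at -0.24 and 0.10. At the peak 8.77 kb upstream they differed more, at -1.37 in mouse 1 and 0.35 in mouse 2.

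Fenoterol before LPS was compared with LPS alone, the question closest to the series title, which concerns β2 adrenergic signalling and early cytokine transcription. Again 0 of 16 peaks rose and 0 fell, by limma-trend and by voom, and limma-trend called 0 (0%) of all tested peaks in either direction, with 4447 of them at an unadjusted p under 0.05. By voom, 368 of all tested peaks were called higher and 34 lower. The log2 differences ran from -0.19 to 0.43, with a median of 0.13 beside -0.01 over all tested peaks, and 14 of 16 were above 0 beside 49.1% of all. In both mice 8 of 16 were higher with fenoterol, beside 29.0% of all tested peaks. Neighbouring peaks share libraries and are not independent, and no test was made over them.

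The 1 window peak at an unadjusted p under 0.05 in this comparison was the one 22.7 kb upstream, with 51.6 and 53.6 RPKM with LPS and 65.4 and 65.6 with both (log2 difference 0.30, SE 0.14, adjusted p = 0.741). Next came the peak 10.3 kb upstream (0.43, SE 0.24, adjusted p = 0.811), where the difference was 0.85 in mouse 1 and 0.02 in mouse 2. At the promoter peak the mice were alike, at 0.10 and 0.11. At the peak 8.77 kb upstream they were not, at -0.21 and 0.63, and the interval of the difference, -0.39 to 0.81, spans a change in either direction. The interaction of fenoterol and LPS gave 0 calls among the 16 peaks and none (0%) of all tested peaks in either direction by limma-trend, with 3 of 16 and 4225 of all at an unadjusted p under 0.05. By voom 0 of the 16 were called, beside 1 higher and 3 lower of all tested peaks.

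**Figure D5:**
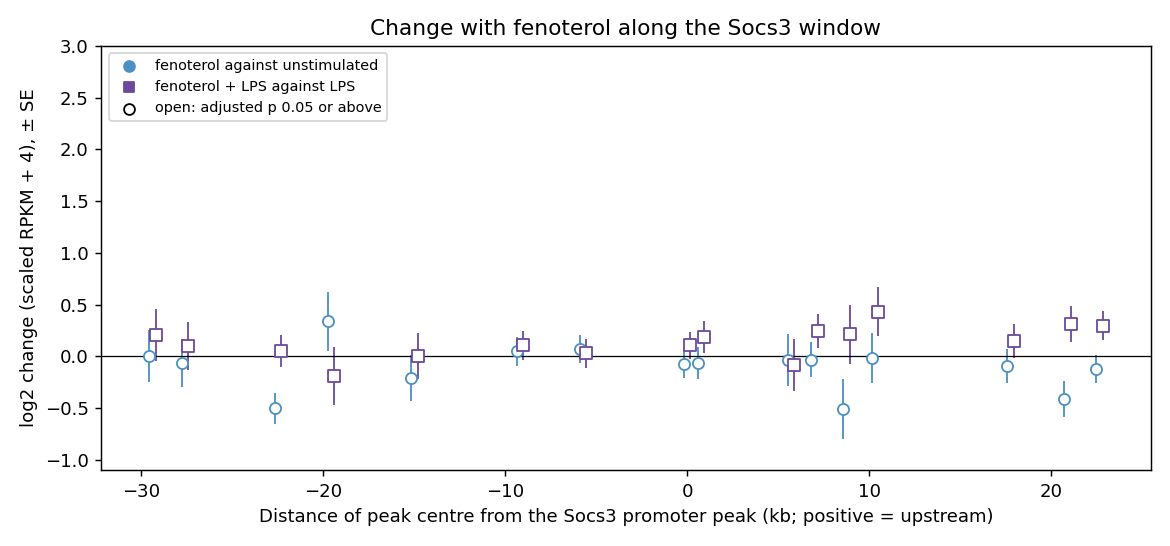
Log2 change with fenoterol (y axis, scaled RPKM + 4, bars are ± SE, same scale as for LPS) against distance from the Socs3 promoter peak (x axis, kb, positive upstream); circles compare fenoterol with unstimulated cells and squares fenoterol + LPS with LPS. All symbols are open, since no peak reached an adjusted p below 0.05, and the changes lie between -0.51 and 0.43.

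Summed over the window, each library with LPS held more reads than each library without it. In reads per 1000000 reads in peaks, the 16 peaks held 223 and 241 reads unstimulated, 200.4 and 241 with fenoterol, 318 and 324 with LPS, and 345 and 368 with both. The 9 peaks called in at least 1 LPS comparison took 49.5% to 52.2% of the window's reads in the 4 libraries without LPS and 64.0% to 67.7% in the 4 with it; these peaks were chosen by that difference. The other 7 peaks held 101 to 119 such reads without LPS and 109 to 124 with it, ranges that overlap. They are the peaks left by the same choice, so that overlap is no separate evidence.

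Over the 8 libraries, log2 accessibility of the promoter peak correlated with that of the peaks 8.77 kb upstream (Pearson's r = 0.975), 9.19 kb downstream (0.971) and 6.99 kb upstream (0.967). It correlated at -0.526 with the peak 0.773 kb upstream and at -0.603 with that 5.70 kb upstream. The median over all tested peaks outside the window was -0.08, and 5.62% reached 0.9. The 3 tested peaks outside the window most like the promoter peak, each at r = 0.997, lay on chromosome 13 at 43873350 to 43873823, on chromosome 5 at 44083695 to 44084533, and on chromosome 1 at 93147855 to 93148368. The peak on chromosome 5 went from 16.1 to 23.2 RPKM without LPS to 47.2 to 54.3 with it. The 8 libraries fall into those with and without LPS, so r over them describes that split first, and depth is shared by all peaks of a library.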

How the data were processed

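The deposited table gives RPKM, made by the authors, for 74207 peaks shared by the 8 libraries. The submitters' processing notes name cutadapt, Bowtie2, MACS2 and HOMER, without versions or roles, and build mm9. Whether duplicates were removed, reads shifted for Tn5 or libraries pooled for calling is not given in the sources used here. Values times peak length were whole multiples of 1 step per library (100% within 0.01 read), so reads were recovered. Reads in peaks came to 1426873 for unstimulated cells of mouse 1 and ranged from 3164446 to 4040292 elsewhere. Peaks without reads appear set to 1 read, and no window peak held under 3 reads.

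Values were divided by median-ratio size factors (0.940 to 1.04) and put on a log2 scale with a pseudocount of 4 RPKM. The 10% of peaks with the lowest means were dropped, which left 66786 for limma 3.58.1 under R 4.3.3. The test was limma-trend, two-sided, with 4 group means over 8 libraries, Benjamini-Hochberg adjustment over all tested peaks and a threshold of 0.05. It was also run on simulated data, with the outcome not reported here. The spread carries 16.4 prior against 4 residual degrees of freedom.

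The members, tests and lists were chosen with earlier results of these data known. Values in every library are given for the promoter peak, called peaks, the peak with the highest mean, and the 2 peaks with the smallest p in each fenoterol comparison. Libraries with 1 mouse number come from 1 animal per the labels; differences between the mice correlated at 0.0223 to 0.0713 between groups. The listed JAK-STAT genes and cell type markers were not analysed here, since no mm9 annotation was used, so the macrophage label was not checked. Motif letters searched for NF-κB are not printed.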

Additional observations from a re-analysis of the deposited data

How the results depend on the processing

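Each result was recomputed under 19 alternatives (18 for the interaction). The promoter peak and the peak 8.77 kb upstream were called under all 19 in both LPS comparisons, with log2 changes of 0.60 to 0.86 and 1.04 to 2.42 without fenoterol and of 0.74 to 1.02 and 1.41 to 3.04 with it. Leaving out 1 library at a time, the 6 calls for LPS against unstimulated ran from 2 to 6, the 9 calls for fenoterol + LPS against fenoterol from 4 to 9, and the 0 calls for fenoterol against unstimulated from 0 to 1. The 2 calls, without the LPS library of mouse 2, were these 2 peaks. The 4 calls, without the fenoterol library of mouse 1, were these 2 and the peaks 6.99 kb upstream and 22.5 kb downstream. Such a group holds 1 library, assumed to vary like the others. Without the shallow unstimulated library of mouse 1 both LPS comparisons kept all their calls, 6 and 9. Without the unstimulated library of mouse 2, the peak 29.4 kb downstream was called lower with LPS (log2 change -0.76, adjusted p = 0.0233), when 5929 of all tested peaks were called lower against 2363 with all libraries. With the replicate block (mouse), the paired fit, the counts were 6 and 9, and it changed no call by limma-trend; by voom on recovered reads with the block 7 and 9 peaks were called. Without a mean trend the counts were 4 and 6. With quantile normalization they were 7 and 10, the added peaks being those 5.72 kb downstream and 22.7 kb upstream. For fenoterol + LPS against LPS and for the interaction, 0 window peaks were called under every alternative run. In fits with all 8 libraries, the interaction over the whole table gave 1 higher and 3 lower by voom and 10 and 6 by voom with the block. It gave 1 and 0 by limma-trend with the block, and 0 under the other alternatives with all libraries. Over the whole table, fenoterol + LPS against LPS gave 0 calls in the limma-trend fit of the report. It gave 368 higher and 34 lower by voom, 464 and 67 by voom with the block, and 228 and 28 by limma-trend on the 4 LPS libraries alone. By limma-trend it gave 19 and 4 when mouse 1 was left out of the unstimulated group, 16 and 4 when mouse 2 was, 2 and 0 with quantile normalization, 2 and 1 with a pseudocount of 20, and 0 under the other alternatives. The causes of these changes were not tested.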
